A study of Mus musculus with 16 samples.

Results

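The glycolysis and hypoxia response genes are a list of 34 mouse genes, chosen by name with earlier results of these data known. They are the enzymes and transporters that carry glucose to lactate, and genes known to be induced when oxygen is low. Counts of these genes set beside the shares of all genes are therefore a description and not a test of the list. A gene is represented by 1 probe set, the one with the highest mean over the 16 arrays among probe sets that name a single gene. Of the 34 genes, 30 had such a probe set, out of 17097 genes on the array. Gpi1, Pgam1, Eno1 and P4ha1 had none and are not analysed here. All 30 passed the filter on low signal, by their mean over the 16 arrays, and 14410 genes in all were tested. Of the 30, 17 belong to glycolysis and 13 to the hypoxia response.

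The study compared RNA of luminal cells, the secretory and ductal lining cells of the mammary gland, sorted by flow cytometry from mice of 4 genotypes, with 4 arrays each. Every group carried MMTV-Cre, a Cre recombinase driven by the mouse mammary tumour virus promoter, which is active in mammary epithelium. The group named MMTV-Cre here carried nothing else, and the group named p38a-lox also carried the p38a-lox allele, in which Cre removes part of the gene for p38a, a stress-activated kinase encoded by Mapk14. Both came from mice of 9 weeks. The PyMT group carried MMTV-Cre and MMTV-PyMT, the polyoma virus middle T oncogene, which drives mammary tumours, and the p38a-lox PyMT group carried all 3 alleles. Both came from mice of 6 weeks, so that in every comparison of arrays with and without PyMT the oncogene and the age cannot be told apart. The comparisons ask how the loss of p38a changes luminal cells without and with the oncogene.

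Glycolysis turns glucose into pyruvate in the cytosol, and lactate dehydrogenase turns pyruvate into lactate, which leaves the cell through monocarboxylate transporters. When oxygen is low, prolyl hydroxylases no longer mark the transcription factor subunit HIF-1alpha for breakdown. It then binds with its partner at short DNA motifs, and raises the transcription of most glycolysis genes together with genes for vessel growth, mitochondrial turnover and growth arrest. In mammary epithelium, glucose uptake through the transporter GLUT1 also serves milk sugar synthesis, and tumours of this tissue are known for high glycolysis.

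The core of the motif bound by HIF is ACGTG or GCGTG. RefSeq promoters of build GRCm38.p6, from 250 bases before to 50 after a start site, were found for 33 of the 34 listed genes. At least 1 promoter held ACGTG or GCGTG on either strand for 30 of these 33 genes (90.9%), against 46.7% of 27025 genes overall. This count favours genes with several listed promoters. Counted by promoter, 78% of the 50 member promoters held a match, against 43.8% of 32851 promoters overall. The palindrome CACGTG holds ACGTG on both strands, was counted at 2 positions, and is also an E-box, a motif bound by other factors. Member promoters were richer in G and C, with a median of 62.7% against 52.7% over all promoters. Among promoters of at least 56.4% G and C, the lower quartile of the member promoters, 86.5% of the members' and 65.8% of all promoters held a match. The promoters of Adm, Slc2a1 and Pfkp are shown because these genes are among the 4 whose level rose in the comparison described further on, and that of Ldha because of its many matches. Each line gives the 250 bases before the start site, 5′ to 3′ on the gene's strand, and the capitals mark each ACGTG or GCGTG and its reverse complement.
Adm, chr7:110627407-110627656, plus strand: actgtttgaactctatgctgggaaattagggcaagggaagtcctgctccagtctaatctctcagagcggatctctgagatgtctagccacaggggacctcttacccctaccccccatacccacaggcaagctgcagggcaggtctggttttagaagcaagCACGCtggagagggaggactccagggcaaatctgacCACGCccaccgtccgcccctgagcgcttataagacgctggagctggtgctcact
Slc2a1, chr4:119108495-119108744, plus strand: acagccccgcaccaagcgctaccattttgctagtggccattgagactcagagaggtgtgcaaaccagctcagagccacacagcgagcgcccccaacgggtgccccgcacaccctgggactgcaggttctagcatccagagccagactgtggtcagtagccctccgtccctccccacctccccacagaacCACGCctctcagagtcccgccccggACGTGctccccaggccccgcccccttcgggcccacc
Pfkp, chr13:6648772-6649021, minus strand: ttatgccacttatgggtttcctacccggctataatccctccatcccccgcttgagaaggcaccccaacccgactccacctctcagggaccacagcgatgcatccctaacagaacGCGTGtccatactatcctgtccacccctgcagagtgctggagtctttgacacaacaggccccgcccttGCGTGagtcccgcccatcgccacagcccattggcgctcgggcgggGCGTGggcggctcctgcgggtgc
Ldha, chr7:46845554-46845803, plus strand: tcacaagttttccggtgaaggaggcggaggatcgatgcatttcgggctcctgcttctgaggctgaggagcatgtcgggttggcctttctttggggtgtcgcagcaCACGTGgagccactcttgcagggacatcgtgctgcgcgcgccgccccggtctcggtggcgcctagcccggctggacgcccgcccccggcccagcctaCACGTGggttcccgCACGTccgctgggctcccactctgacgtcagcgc
The Adm and Slc2a1 windows hold 2 matches each, the Pfkp window 3 and the Ldha window 5. Vegfa, the other gene that rose, has 2 listed promoters. The window of the start site further upstream holds 0 matches, and that of the start site further downstream holds 2. Vegfa counts among the 30 genes only through the latter. A match describes the letters in the window and does not show binding.

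Signals are log2 values, so a difference of 1 is a doubling, and they are compared only within a gene, since probe sets differ in brightness. The array medians lay between 4.63 and 4.88, and the correlation between pairs of arrays between 0.885 and 0.990. The luminal marker list averaged 10.09 to 10.44 in the 4 groups. Lists of endothelial, leukocyte and adipocyte markers, with 7, 7 and 3 measured genes, averaged 3.66 to 4.66, against a low-signal filter of 3.67, and the fibroblast list of 7 genes 4.74 to 5.41. Single genes of these lists lay well above the filter, among them the macrophage marker Cd68 with 5.38 to 9.44 over the arrays and the adipocyte gene Fabp4 with up to 7.96. The 2 measured erythroid markers averaged 6.08 to 6.31 and the 9 measured cell cycle genes 6.47 to 6.82. The numbers in the sample titles fall into a lower range (9 arrays) and a higher range (7 arrays) whose meaning is not given in the labels; both ranges occur in every group, and differences within each are given for part of the members. In both ranges the sign was the same for 21 of the 30 members for p38a-lox without PyMT and for 15 with PyMT. For PyMT it was the same for 10 in the control background and for 26 in p38a-lox. This agreement was not counted over all genes. Mapk14 itself averaged 6.53 ± 0.885 in MMTV-Cre and 7.31 ± 0.862 in p38a-lox (SD, n = 4), and 7.20 ± 0.321 in PyMT and 7.23 ± 0.103 in p38a-lox PyMT. It was thus not lower in the arrays labelled p38a-lox (limma, adjusted p = 0.999 in both comparisons). No source used here places its probe set inside or outside the deleted part, so that this level does not check the labels. In bulk RNA of this kind, fewer cells of a type and less RNA per cell cannot be told apart. The labels do not say that the arrays of a group come from separate mice, and p-values then measure only the spread between these samples.

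**Figure D1:**
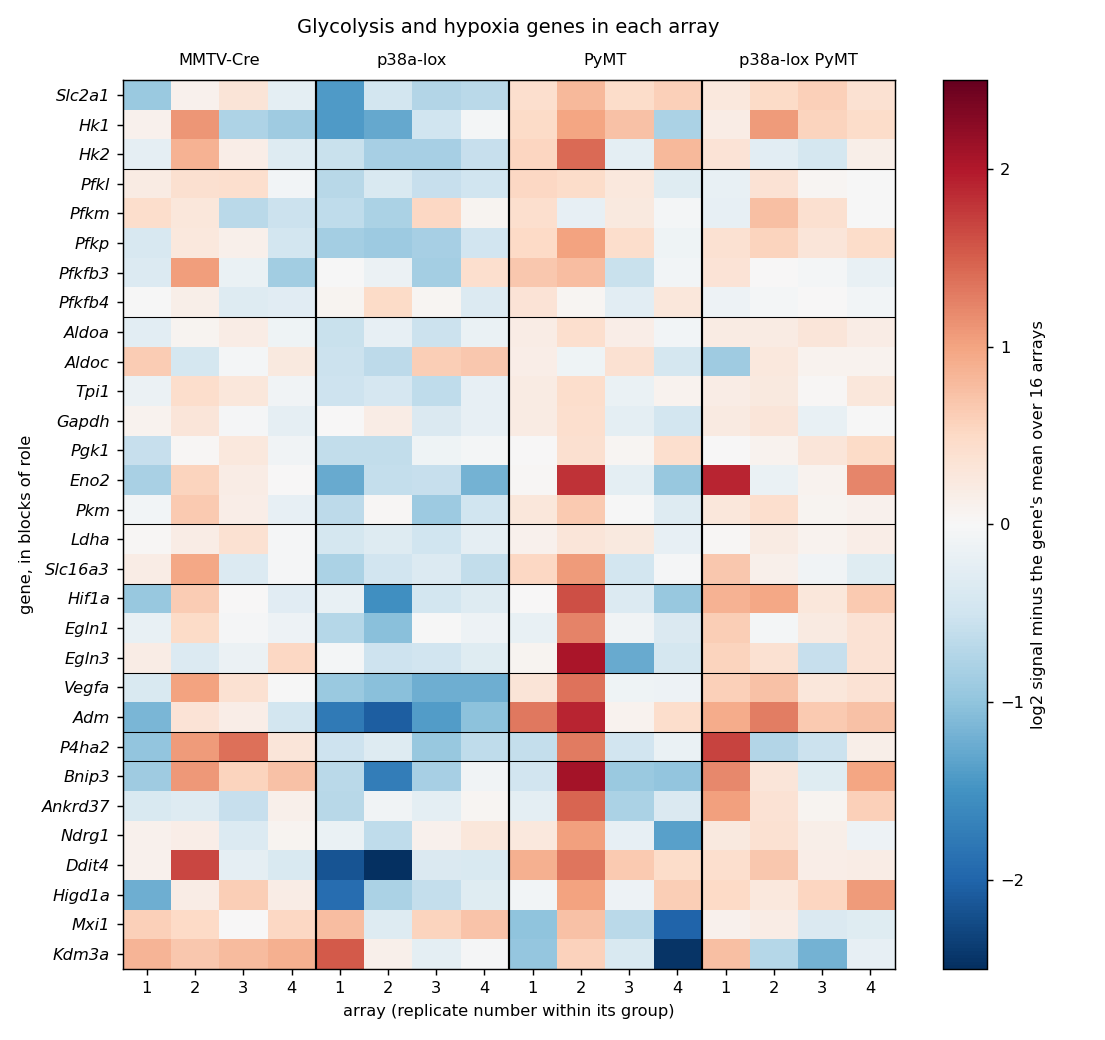
Log2 signal of the 30 genes (rows, in blocks of role) in each of the 16 arrays (columns, by group and replicate number), as the deviation from the gene's own mean over the 16 arrays. The p38a-lox columns are mostly blue, replicate 2 of the PyMT group is mostly red, and Ddit4 in p38a-lox replicate 2 lies beyond the end of the colour scale.

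Without PyMT, most of the genes read lower in the p38a-lox arrays than in the MMTV-Cre arrays. The difference was negative for 27 of the 30 genes and positive for 3, with a median of -0.54 against 0.00 over all tested genes, of which 49.9% were lower. None of the 30 passed the adjusted threshold of 0.05, and neither did any of the 14410 genes (0%; limma with Benjamini-Hochberg adjustment). At an unadjusted p under 0.05, 12 members were lower and 0 higher, against 2.47% and 2.32% of all genes. For 7 members, every p38a-lox array was lower than every MMTV-Cre array: Vegfa, Pfkl, Ldha, Tpi1, Pfkp, Hk2 and Slc16a3. The same held for 1.17% of all genes. By role, 3 of 3 genes of uptake were lower, with a median difference of -0.70. For the phosphofructokinase step and its regulators it was 4 of 5, with a median of only -0.09. Of aldolase to pyruvate kinase 7 of 7 were lower (median -0.34), among them Aldoc at -0.07 and Gapdh at -0.13. The counts were 2 of 2 for lactate production and export (-0.63), 3 of 3 for oxygen sensing (-0.47) and 2 of 2 for secreted factors (-1.32). Of the remaining hypoxia-induced genes, with P4ha2, 6 of 8 were lower. The fibroblast marker list was lower as well, at 5.02 to 5.69 over the MMTV-Cre arrays and 4.58 to 4.82 over the p38a-lox arrays. Of its 7 measured genes 3 were below the filter in every group, and of the 4 tested 3 were lower, with a median of -0.89 and 0 called. Of the 7 leukocyte markers 4 were tested, of which 3 were higher and 1 lower, with a median of 0.004 and 0 called. The lower one was Cd68, at -0.99 ± 0.560. The part of the fibroblast and leukocyte markers in the members' values was not tested.

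With PyMT, the same allele went with a median of 0.07 over the 30 genes, against -0.04 over all tested genes. Here 19 members were higher and 11 lower in p38a-lox PyMT than in PyMT, against 41.8% of all genes higher. None passed the adjusted threshold (0% of all genes did), 1 was lower at an unadjusted p under 0.05 against 2.51% of all genes, and no member's groups were free of overlap, while 0.659% of all genes were higher and 1.89% lower without overlap. The difference between both p38a-lox effects, with PyMT minus without, was positive for 27 of 30 members and for 44.8% of all genes, with a median of 0.60 against -0.04 over all genes. None of the 30 passed the adjusted threshold in that interaction (0% of all genes did). At an unadjusted p under 0.05, 5 were positive, against 1.01% of all genes. The interaction is computed from both p38a-lox differences, so the negative differences without PyMT enter it with opposite sign. It is not a separate result.

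In the p38a-lox background, 4 members rose with PyMT: Adm, Pfkp, Slc2a1 and Vegfa. Across all genes 0.777% were called in this comparison, 0.548% in the higher direction. The median over the 30 members was 0.65, against -0.02 over all tested genes, and 26 members were higher and 4 lower, against 46.5% of all genes higher. At an unadjusted p under 0.05, 17 were higher, against 6.77% of all genes. For 18 members all 4 p38a-lox PyMT arrays lay above all 4 p38a-lox arrays, against 4.41% of all genes. This comparison and that of p38a-lox with MMTV-Cre share the 4 p38a-lox arrays, so the low values of those arrays enter both with opposite sign.

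In the control background, PyMT went with a smaller median of 0.14 over the members, against 0.03 over all genes, with 21 members higher and 9 lower and 55% of all genes higher. None passed the adjusted threshold, while 1.26% of all genes did. At an unadjusted p under 0.05, 3 members were higher and 2 lower, against 7.78% and 5.98% of all genes. Slc2a1 alone was higher in every PyMT array than in every MMTV-Cre array and Kdm3a alone lower, against 4.44% and 2.65% of all genes. These member counts lie near the shares of all genes. This comparison shares the MMTV-Cre arrays with the first one and the PyMT arrays with the second.

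**Figure D2:**
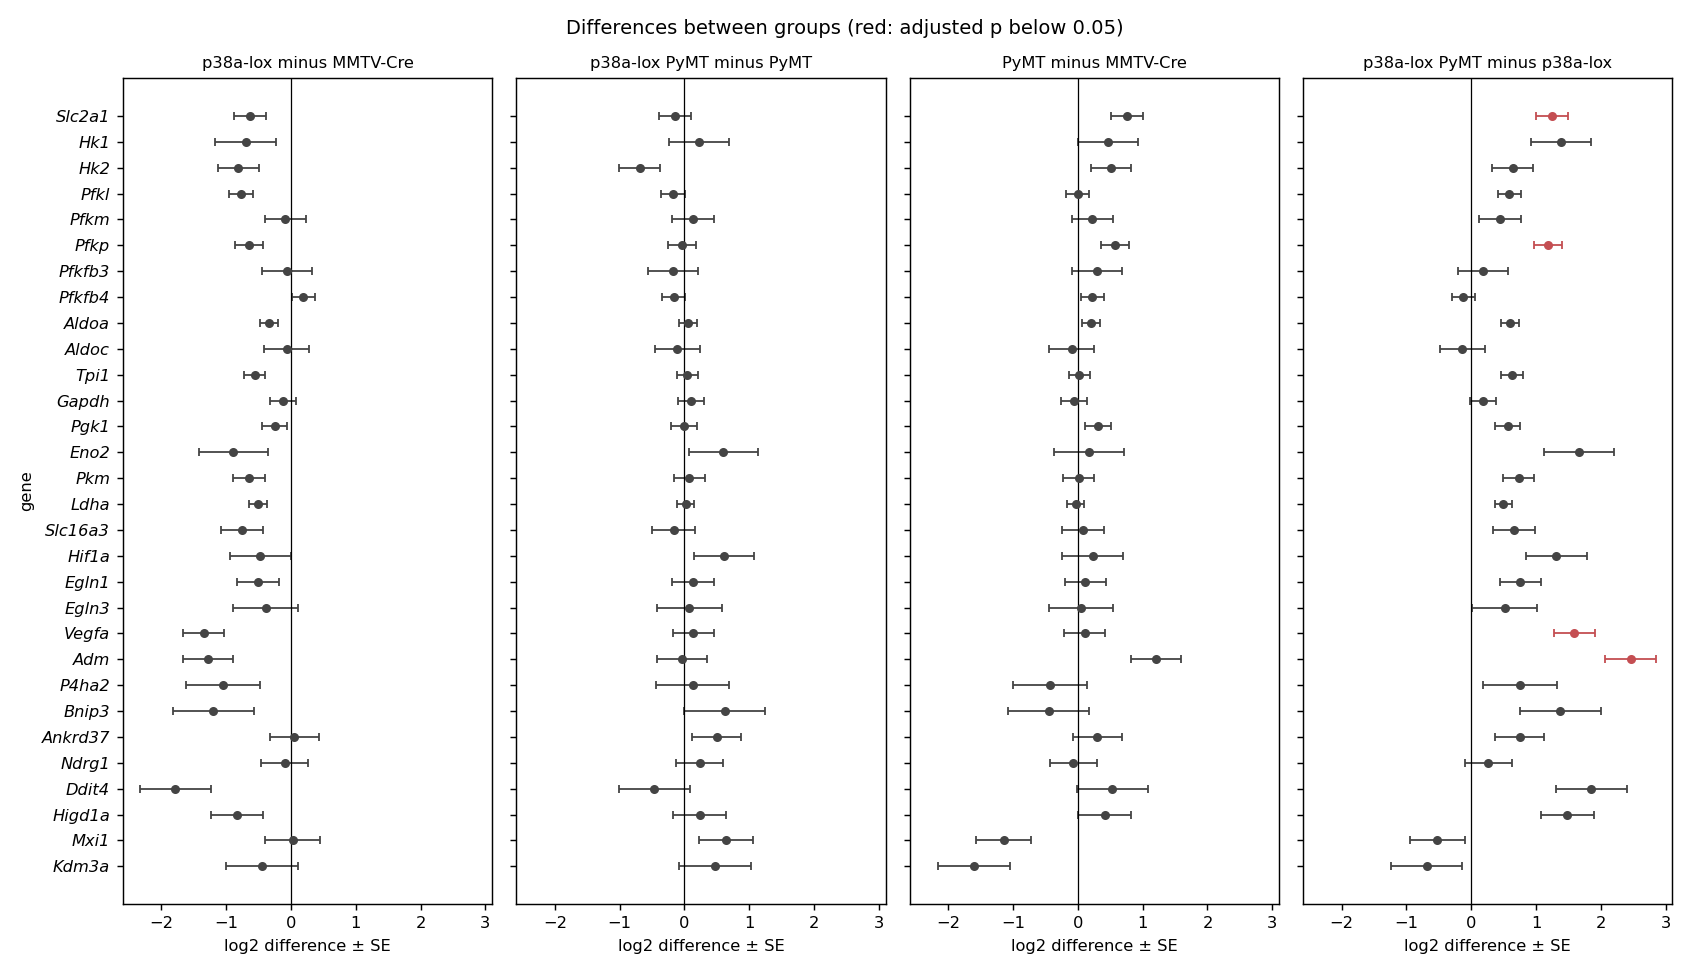
Log2 difference ± SE of the 30 genes (rows) in 4 comparisons of groups of 4 arrays, from the limma model over 16 arrays, with the 4 genes past an adjusted p of 0.05 in red. Most points lie left of 0 in the first panel and right of 0 in the last, and they scatter around 0 in the second.

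Slc2a1 encodes GLUT1, the transporter that brings glucose into the cell. It read 10.76, 11.80, 12.01 and 11.44 in the MMTV-Cre arrays and 10.27, 11.22, 10.96 and 11.00 in the p38a-lox arrays, in order of replicate number. With PyMT it read 12.10, 12.50, 12.15 and 12.28 in the control background and 11.95, 12.16, 12.28 and 12.06 with p38a-lox. All p38a-lox PyMT arrays lay above all p38a-lox arrays, and all PyMT arrays above all MMTV-Cre arrays, while the p38a-lox and MMTV-Cre arrays overlapped. With PyMT it rose in p38a-lox by 1.25 ± 0.244 (log2 difference ± SE), or 2.38-fold (limma, adjusted p = 0.0292). The difference with PyMT in the control background, 0.76 ± 0.244, did not pass (limma, adjusted p = 0.151). The p38a-lox differences were -0.64 ± 0.244 without PyMT and -0.15 ± 0.244 with it.

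Hexokinases trap glucose as its phosphate, and Hk2 encodes the inducible form. Hk2 read 5.73, 6.81, 6.11 and 5.62 in MMTV-Cre and 5.39, 5.13, 5.12 and 5.38 in p38a-lox, so that the p38a-lox arrays were all lower. It read 6.49, 7.36, 5.71 and 6.76 in PyMT and 6.29, 5.68, 5.52 and 6.09 in p38a-lox PyMT, where the groups overlapped. Its p38a-lox difference was -0.82 ± 0.315 without PyMT and -0.69 ± 0.315 with PyMT (limma, adjusted p = 0.950 and 0.999). Among the 30 genes it was the one with the smallest p for p38a-lox under PyMT. That difference was -0.89 among the arrays of lower title numbers and 0.09 among the others, and -0.43 without PyMT replicate 2. Hk1, the constitutive hexokinase, differed by -0.70 ± 0.464 without PyMT, but by -1.96 within the lower range of title numbers and 0.56 within the higher one.

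Phosphofructokinase commits sugar to glycolysis, and its liver, muscle and platelet forms come from Pfkl, Pfkm and Pfkp. Pfkl read 10.57, 10.77, 10.77 and 10.29 in MMTV-Cre, and 9.67, 9.98, 9.77 and 9.87 in p38a-lox. Every p38a-lox array was thus below every other array of the 16, since Pfkl read 10.88, 10.81, 10.63 and 10.06 in PyMT and 10.17, 10.73, 10.41 and 10.35 in p38a-lox PyMT. The difference of p38a-lox from MMTV-Cre was -0.78 ± 0.183 and did not pass after adjustment (limma, adjusted p = 0.479). It was -0.84 among the arrays of lower title numbers and -0.71 among the others. With PyMT the p38a-lox difference was -0.18 ± 0.183, and the interaction 0.59 ± 0.259 (limma, adjusted p = 0.992).

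Pfkp read 8.78, 9.46, 9.32 and 8.72 in MMTV-Cre and 8.33, 8.29, 8.35 and 8.72 in p38a-lox. It read 9.69, 10.19, 9.63 and 9.08 in PyMT and 9.56, 9.74, 9.49 and 9.66 in p38a-lox PyMT. The p38a-lox arrays were the lowest 4 of the 16, the highest of them just under the lowest MMTV-Cre array. It rose with PyMT in p38a-lox by 1.19 ± 0.218, or 2.28-fold (limma, adjusted p = 0.0196), and the p38a-lox difference without PyMT was -0.65 ± 0.218 (adjusted p = 0.833). In the control background PyMT went with 0.58 ± 0.218 (limma, adjusted p = 0.234), and there the other Pfkp probe set differed by -0.42. Pfkm, Pfkfb3 and Pfkfb4, the latter pair encoding enzymes that make and remove an activator of phosphofructokinase, had p38a-lox differences of -0.09, -0.06 and 0.19 without PyMT, all within their standard errors or close to them. None of the 3 was free of overlap in any comparison.

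Below that step, aldolase splits the sugar and further enzymes lead to pyruvate. Aldoa, the main aldolase of most tissues, read 11.56, 11.89, 12.02 and 11.72 in MMTV-Cre and 11.26, 11.61, 11.29 and 11.65 in p38a-lox. With PyMT it read 12.00, 12.23, 11.99 and 11.75, and with both alleles 12.02, 12.03, 12.12 and 12.01. The p38a-lox PyMT arrays lay within a narrow band above all p38a-lox arrays. This difference of 0.59 ± 0.141 fell short of the threshold (limma, adjusted p = 0.0649), and that of p38a-lox from MMTV-Cre was -0.34 ± 0.141.

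Tpi1 encodes triose phosphate isomerase, which interconverts the products of aldolase. It read 10.79, 11.39, 11.23 and 10.86 in MMTV-Cre and 10.43, 10.53, 10.31 and 10.75 in p38a-lox, with no overlap. It read 11.15, 11.40, 10.77 and 11.03 in PyMT and 11.13, 11.19, 10.98 and 11.24 in p38a-lox PyMT. The p38a-lox difference was -0.56 ± 0.164 without PyMT and 0.05 ± 0.164 with it, and PyMT in p38a-lox went with 0.63 ± 0.164 (limma, adjusted p = 0.0966).

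Gapdh, the dehydrogenase often used as a reference gene, read 12.73, 12.94, 12.62 and 12.42 in MMTV-Cre and 12.65, 12.82, 12.27 and 12.44 in p38a-lox. It read 12.84, 13.07, 12.39 and 12.18 in PyMT and 12.87, 12.94, 12.46 and 12.64 in p38a-lox PyMT. The 4 groups overlapped throughout, and its p38a-lox difference was -0.13 ± 0.198 without PyMT. Differences of the other members are on the normalized scale of all genes and are not relative to Gapdh.

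Eno2, the gamma enolase, read 4.81, 6.17, 5.80 and 5.62 in MMTV-Cre and 4.36, 5.02, 5.03 and 4.43 in p38a-lox. It read 5.64, 7.41, 5.37 and 4.67 in PyMT and 7.51, 5.45, 5.69 and 6.84 in p38a-lox PyMT, with SDs of 1.17 and 0.970. All p38a-lox PyMT arrays were above all p38a-lox arrays, by 1.66 ± 0.536 (limma, adjusted p = 0.185). In the PyMT groups, PyMT replicate 2 and p38a-lox PyMT replicates 1 and 4 stood highest. Pkm, which encodes the pyruvate kinases M1 and M2, read 10.75, 11.47, 10.97 and 10.60 in MMTV-Cre and 10.15, 10.83, 9.90 and 10.30 in p38a-lox. It read 11.09, 11.46, 10.80 and 10.48 in PyMT and 11.10, 11.23, 10.88 and 10.92 in p38a-lox PyMT. Its p38a-lox difference was -0.65 ± 0.241 without PyMT, with 1 p38a-lox array inside the control range, and 0.07 ± 0.241 with PyMT. Pgk1, which makes ATP in this stretch, was also lower in p38a-lox without PyMT. The difference was -0.25, less than 1 SD of its MMTV-Cre arrays, while its other probe set differed by -0.55. Aldoc had opposite signs in both ranges of title numbers, -0.69 and 0.55.

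Ldha encodes the subunit of lactate dehydrogenase that favours lactate production. It read 11.91, 12.05, 12.26 and 11.84 in MMTV-Cre and 11.43, 11.55, 11.38 and 11.66 in p38a-lox, with no overlap. It read 11.98, 12.17, 12.11 and 11.66 in PyMT and 11.91, 12.07, 11.97 and 12.05 in p38a-lox PyMT. The p38a-lox difference of -0.51 ± 0.134 did not pass (limma, adjusted p = 0.656) and was -0.49 and -0.53 within the lower and higher range of title numbers. With PyMT it was 0.02 ± 0.134, and the interaction was 0.53 ± 0.190 (limma, adjusted p = 0.992). Slc16a3, the lactate exporter MCT4, was likewise lower in all p38a-lox arrays than in all MMTV-Cre arrays.

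**Figure D3:**
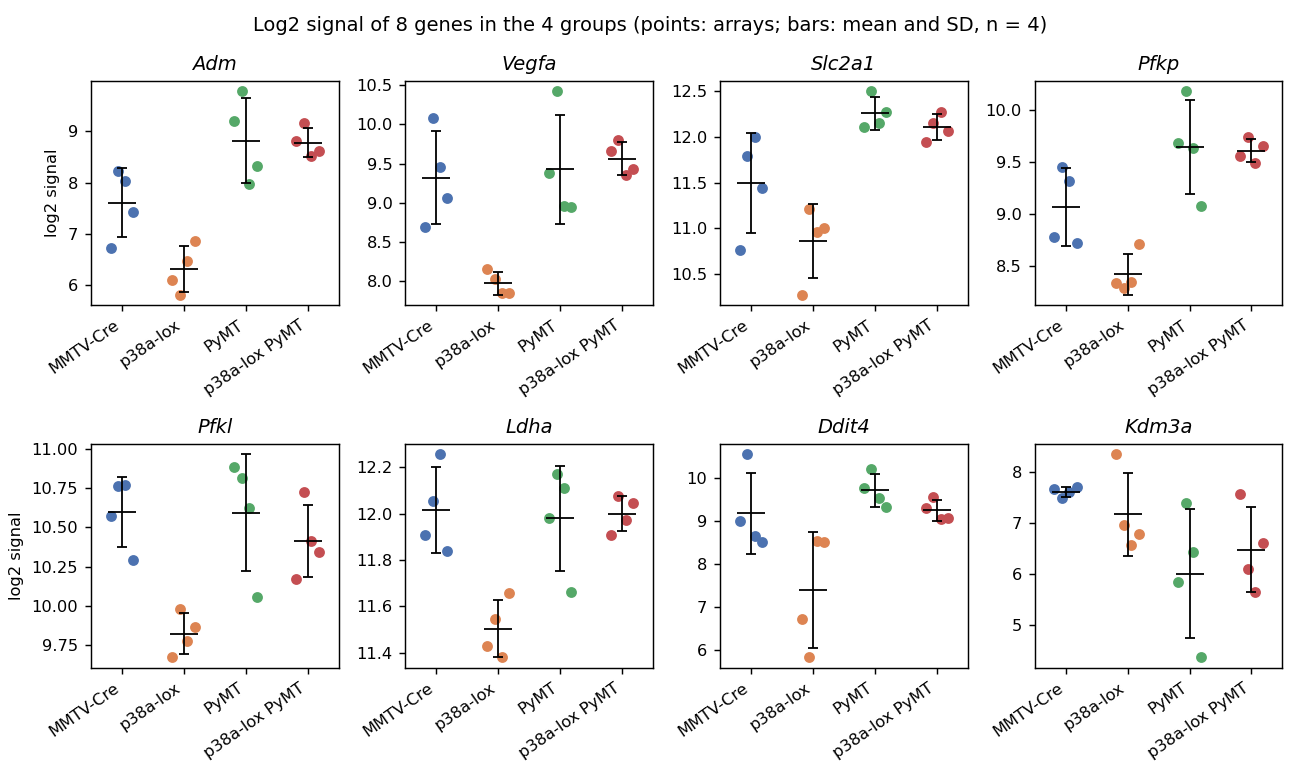
Log2 signal of 8 genes (panels) in the 4 groups (x axis), with a point for each array and bars for the mean and SD (n = 4). The p38a-lox points of Pfkl, Vegfa, Pfkp and Ldha lie below all MMTV-Cre points, those of Ddit4 are split, and the MMTV-Cre points of Kdm3a lie between 7.49 and 7.71.

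Hif1a encodes the oxygen-regulated subunit itself, which is controlled mostly at the protein level. Its RNA read 7.09, 8.68, 8.05 and 7.77 in MMTV-Cre and 7.87, 6.52, 7.58 and 7.73 in p38a-lox, which overlap. It read 8.06, 9.65, 7.71 and 7.10 in PyMT and 8.91, 9.02, 8.33 and 8.70 in p38a-lox PyMT. The differences were -0.47 ± 0.468 for p38a-lox without PyMT and 0.61 ± 0.468 with it (limma, adjusted p = 0.999 each). The latter was 1.12 without PyMT replicate 2 and 0.27 without PyMT replicate 4. PyMT in p38a-lox went with 1.32 ± 0.468, all arrays higher (limma, adjusted p = 0.238). Egln1 and Egln3 encode prolyl hydroxylases that mark HIF-1alpha for breakdown and are themselves hypoxia-induced. Their p38a-lox differences without PyMT were -0.51 and -0.39, with overlap of the groups in all 4 comparisons.

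The secreted factors gave the widest differences among the members that rose. Vegfa encodes the growth factor that drives the sprouting of vessels. It read 8.70, 10.08, 9.46 and 9.06 in MMTV-Cre and 8.15, 8.03, 7.86 and 7.86 in p38a-lox, whose arrays were all lower and close together. It read 9.39, 10.42, 8.96 and 8.94 in PyMT and 9.67, 9.80, 9.35 and 9.44 in p38a-lox PyMT, which overlap. The p38a-lox difference without PyMT was -1.35 ± 0.313, or 2.55-fold lower, with the smallest p of the 30 genes in this comparison, and it did not pass after adjustment (limma, adjusted p = 0.479). It was -1.30 and -1.40 within the lower and higher range of title numbers. With PyMT the difference was 0.14 ± 0.313, and the interaction 1.49 ± 0.443 (limma, adjusted p = 0.992). In p38a-lox it rose with PyMT by 1.59 ± 0.313, or 3.01-fold (limma, adjusted p = 0.0304), against 0.10 ± 0.313 in the control background.

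Adm encodes adrenomedullin, a peptide that widens vessels. It read 6.74, 8.22, 8.03 and 7.43 in MMTV-Cre and 6.11, 5.82, 6.48 and 6.85 in p38a-lox, with the lowest control array inside the p38a-lox range. It read 9.19, 9.77, 7.96 and 8.31 in PyMT and 8.81, 9.15, 8.53 and 8.62 in p38a-lox PyMT. In p38a-lox it rose with PyMT by 2.46 ± 0.387, or 5.5-fold (limma, adjusted p = 0.0099), and by 3.01 and 1.90 within the lower and higher range of title numbers. In the control background the difference with PyMT was 1.21 ± 0.387 (limma, adjusted p = 0.150), with 1.61 and 0.23 within the ranges. The p38a-lox difference was -1.29 ± 0.387 without PyMT (limma, adjusted p = 0.742) and -0.03 ± 0.387 with it.

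Adm passed the threshold in all 27 alternative analyses of this comparison, with adjusted p from 0.000327 to 0.0484 (limma). Slc2a1 passed in 21 of 27 (limma, adjusted p from 0.00102 to 0.117), Pfkp in 20 (0.000328 to 0.158) and Vegfa in 18 (0.000371 to 0.114). Only Adm was called when replicate 1 or 3 of p38a-lox, or replicate 2, 3 or 4 of p38a-lox PyMT, was left out. The basal marker list moved with PyMT as well, with means of 6.50 and 6.39 in MMTV-Cre and p38a-lox and 7.64 and 7.78 in PyMT and p38a-lox PyMT. Of its 8 measured genes, 7 were higher with PyMT in p38a-lox, where 0 were called, and 6 in the control background, where 1 was called. Their median differences were 1.61 and 1.28, with 5 and 4 genes higher at an unadjusted p under 0.05. Of the 7 leukocyte markers, whose list averaged 4.26 in p38a-lox and 4.66 in p38a-lox PyMT, 4 were tested and 1 rose with PyMT in p38a-lox. This was Cd68, from 6.31 to 9.05, by 2.74 ± 0.560 with no overlap (limma, adjusted p = 0.0357), while Ptprc, the marker shared by leukocytes, read 2.84 and 2.79. The immediate early genes, which respond to cell isolation among other stimuli, averaged 8.30, 8.81, 9.54 and 9.37 in the order MMTV-Cre, p38a-lox, PyMT and p38a-lox PyMT. Of these 11 genes, 9 were higher with PyMT in each background, with 5 called in the control background and 1 in p38a-lox. In p38a-lox without PyMT 6 were higher and 5 lower, with 0 called, and Egr1 and Egr2 differed most, by 2.75 ± 0.452 and 2.09 ± 0.379. The 4 tested fibroblast markers were all higher with PyMT in p38a-lox, with a median of 0.69 and 0 called. The fibroblast list averaged 4.74 in p38a-lox and 5.19 in p38a-lox PyMT. Of the 9 cell cycle genes, 7 were higher and 2 lower there, with a median of 0.50 and 0 called. Over all genes, 46.5% were higher and 0.777% called with PyMT in p38a-lox, and 55% and 1.26% in the control background. The part of these lists in the rise of the 4 genes was not tested.

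The other hypoxia-induced genes were less uniform. Ddit4 encodes an inhibitor of the growth-promoting kinase complex mTORC1. It read 9.00, 10.57, 8.66 and 8.52 in MMTV-Cre and 6.73, 5.82, 8.53 and 8.51 in p38a-lox, where replicates 1 and 2 were low and replicates 3 and 4 near the lowest controls. It read 9.77, 10.23, 9.54 and 9.34 in PyMT and 9.31, 9.57, 9.05 and 9.07 in p38a-lox PyMT. Its difference of -1.79 ± 0.549 was the widest of the 30 genes for p38a-lox without PyMT (limma, adjusted p = 0.749). Within the lower range of title numbers, which holds p38a-lox replicates 1 and 2, it was -3.51, and within the higher one -0.07. PyMT in p38a-lox went with 1.85 ± 0.549, and with 3.17 and 0.54 within the ranges.

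Bnip3, which promotes the removal of mitochondria, read 8.64, 10.61, 10.08 and 10.26 in MMTV-Cre and 8.86, 7.80, 8.70 and 9.44 in p38a-lox. It read 9.05, 11.61, 8.61 and 8.54 in PyMT and 10.73, 9.82, 9.23 and 10.51 in p38a-lox PyMT. The groups overlapped in every comparison, and PyMT replicate 2 stood above the rest of its group. Its p38a-lox difference was -1.20 ± 0.625 without PyMT and 0.62 ± 0.625 with it, where it was 1.34 without PyMT replicate 2 and 0.32 without PyMT replicate 4. Ankrd37, a target of HIF-1, read 5.84, 5.90, 5.65 and 6.34 in MMTV-Cre and 5.53, 6.13, 5.98 and 6.27 in p38a-lox. It read 5.96, 7.67, 5.42 and 5.86 in PyMT and 7.23, 6.58, 6.28 and 6.82 in p38a-lox PyMT. Its p38a-lox differences, 0.05 ± 0.377 and 0.50 ± 0.377, were within the spread of the groups. The second was 0.98 without PyMT replicate 2 and 0.23 without PyMT replicate 3.

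Mxi1 and Kdm3a had the lowest differences with PyMT among the 30 genes, and neither passed the threshold with all arrays. Mxi1 encodes an antagonist of Myc, and read 9.65, 9.55, 9.04 and 9.55 in MMTV-Cre and 9.82, 8.71, 9.59 and 9.76 in p38a-lox. It read 8.03, 9.77, 8.37 and 7.04 in PyMT and 9.15, 9.22, 8.69 and 8.73 in p38a-lox PyMT. In the PyMT group 3 arrays were below every MMTV-Cre array, and replicate 2 was above them all. The difference with PyMT was -1.14 ± 0.422 in the control background (limma, adjusted p = 0.220). Kdm3a encodes a histone demethylase, and read 7.67, 7.49, 7.61 and 7.71 in MMTV-Cre and 8.36, 6.96, 6.58 and 6.80 in p38a-lox. It read 5.85, 7.39, 6.44 and 4.37 in PyMT and 7.58, 6.11, 5.65 and 6.61 in p38a-lox PyMT. All PyMT arrays were below all MMTV-Cre arrays, by -1.61 ± 0.552 (limma, adjusted p = 0.182). Without PyMT replicate 2, the differences were -1.63 for Mxi1 and -2.06 for Kdm3a, and both genes passed the threshold (limma, adjusted p = 0.0166 and 0.0488, in a range over all 27 alternatives of 0.0166 to 0.553 and 0.0332 to 0.426). Without PyMT replicate 4 they were -0.72 and -1.06. In p38a-lox, PyMT went with -0.52 ± 0.422 for Mxi1, which was -0.08 and -0.97 within the lower and higher title numbers, and with -0.69 ± 0.552 for Kdm3a. The remaining hypoxia-induced members, Ndrg1, Higd1a and the collagen prolyl hydroxylase P4ha2, had p38a-lox differences of -0.10, -0.84 and -1.05 without PyMT, with overlap of the groups.

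Within groups, single arrays stood apart across many members at once. PyMT replicate 2 held the highest value of its group for 25 of the 30 genes, and PyMT replicate 4 the lowest for 17. MMTV-Cre replicate 2 was the highest of its group for 17. These counts were not made over all genes, so a trait of the members and one of the whole arrays cannot be told apart. PyMT replicate 2 had the highest array median of its group, at 4.76. PyMT replicate 4 had the lowest median correlation with the other arrays, at 0.934. As a mean over the 13 hypoxia genes, PyMT replicate 2 stood 1.36 above the genes' own means, while the rest of the PyMT group lay between -0.59 and -0.05. Over the 17 glycolysis genes it stood at 0.63, and the other PyMT arrays between -0.10 and 0.33. The p38a-lox arrays lay between -0.64 and -0.27 for glycolysis and between -1.0 and -0.26 for hypoxia. For glycolysis all 4 lay below every other array of the 16, while for hypoxia they overlapped with the MMTV-Cre and PyMT groups. The p38a-lox PyMT arrays were closest together for glycolysis, between 0.12 and 0.27.

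**Figure D4:**
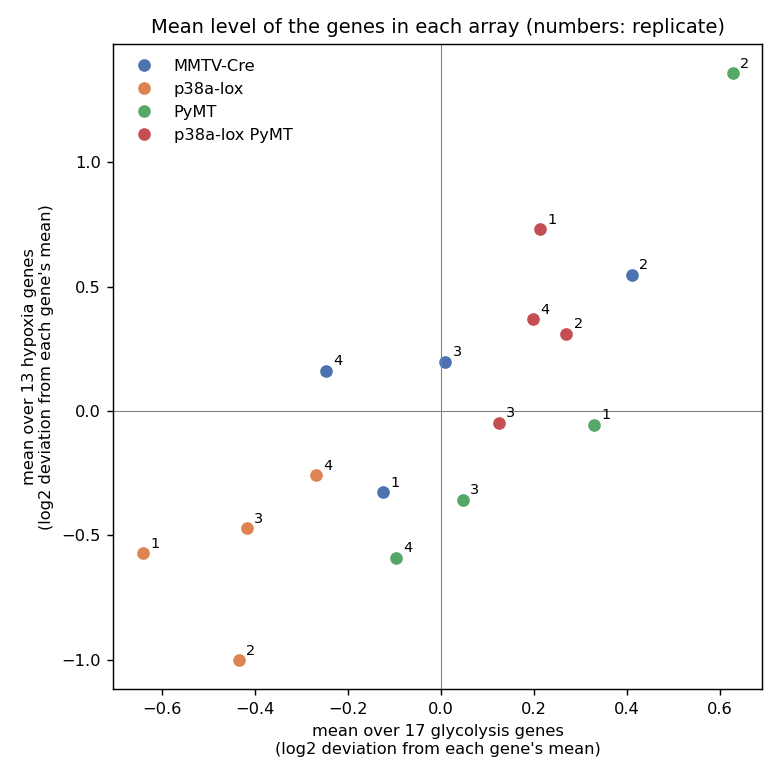
Mean deviation of the 17 glycolysis genes (x axis) and of the 13 hypoxia genes (y axis) from each gene's mean over the 16 arrays, in log2 units, with 1 point per array, coloured by group and numbered by replicate. The 4 p38a-lox arrays lie furthest left, between -0.64 and -0.27, and PyMT replicate 2 lies at the upper right.

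After the group means were taken out, 83.9% of the member pairs were positively correlated across the 16 arrays. The median Pearson correlation was 0.43 over the 435 pairs of members and 0.0286 over all pairs of tested genes, as a description over arrays that share their normalization. It was 0.57 among hypoxia genes, 0.36 among glycolysis genes and 0.39 between both. Without PyMT replicate 2 the median over member pairs was 0.25, and that over all pairs of tested genes was not computed. Members and all tested genes were not matched for signal level. Over the 16 arrays, Vegfa was most alike to Hif1a (r = 0.856), Adm (0.805) and Pfkp (0.790). Without PyMT replicate 2 these values were 0.716, 0.710 and 0.666. Ldha was most alike to Pfkp (0.852), Aldoa (0.837) and Pfkl (0.788), and Pfkl to Ldha, Pfkp (0.741) and Pkm (0.723). Without that array the values for Ldha were 0.834, 0.805 and 0.767, and those of Pfkl with Pfkp and Pkm 0.736 and 0.697. Aldoc, Pfkfb4 and Pfkm did not vary with the rest, with mean correlations of -0.09, -0.07 and -0.02 to the other members.

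Within the ranges of title numbers, the median member difference for p38a-lox without PyMT was -0.65 in the lower range (28 of 30 lower) and -0.44 in the higher one (21 of 30 lower). For PyMT in p38a-lox it was 0.83 and 0.55, with 27 and 25 of 30 members higher. For p38a-lox with PyMT it was 0.04 and 0.26, and for PyMT in the control background 0.11 and -0.06, which differ in sign. The PyMT group holds 1 array in the higher range, so that the values of both these comparisons in that range rest on it. Counts within the ranges were not made over all genes. Of the members, 15 have further single-symbol probe sets, 19 in all. These had the same sign as the probe set used in 17 of 19 cases for p38a-lox without PyMT and in 19 of 19 for PyMT in p38a-lox, but in 13 and 12 of 19 for p38a-lox with PyMT and for PyMT in the control background. The probe sets of Aldoa, Tpi1, Pgk1, Gapdh and Ndrg1 are of types that can bind related sequences, so their values may include related transcripts.

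Genes of the same pathways outside the 34 were read from lists of 40 hypoxia genes, of which 36 were tested, and 32 genes of glucose metabolism, of which 26 were tested. Of the 36 hypoxia genes, 29 were lower and 7 higher in p38a-lox than in MMTV-Cre, against 49.9% of all genes lower. Their median was -0.21, and 0 were called. Those with the smallest p were Plod1, a collagen lysyl hydroxylase, at -1.40 ± 0.408, the mitochondrial protein gene Fam162a at -1.14 ± 0.373 and the demethylase-family gene Jmjd6 at -0.56 ± 0.254. With PyMT present, 17 were higher and 19 lower in p38a-lox, against 41.8% of all genes higher, with 0 called. The smallest p belonged to Bhlhe41, a transcriptional repressor, at -0.97 ± 0.325, followed by Plod1 at -0.70 ± 0.408 and Pdk1, a kinase that shuts pyruvate dehydrogenase, at 0.59 ± 0.385. With PyMT in p38a-lox, 26 of 36 were higher, against 46.5% of all genes, and 3 rose, against 0.548% of all genes called higher. These were Car12 by 4.01 ± 0.471, Car9 by 2.68 ± 0.456 and Fam162a by 1.85 ± 0.373 (limma, adjusted p = 0.00128, 0.0167 and 0.0339). Car9 and Car12 encode carbonic anhydrases at the cell surface that help to clear acid. Both also rose with PyMT in the control background, by 2.31 ± 0.456 and 4.20 ± 0.471 (limma, adjusted p = 0.0257 and 0.00117). There 20 of the 36 genes were higher, near the 55% of all genes, and 1.26% of all genes were called. Of the 26 genes of glucose metabolism, 15 were lower and 11 higher in p38a-lox without PyMT, against 49.9% of all genes lower. Their median was -0.02, and 0 were called. The smallest p there was that of Bsg, the chaperone of lactate transporters, at -0.92 ± 0.328, followed by the transketolase gene Tkt at 0.43 ± 0.229 and G6pc3 at -0.41 ± 0.266. With PyMT present, 15 were higher and 11 lower in p38a-lox, against 41.8% of all genes higher, and 0 were called. The smallest p values were those of Pgam2 at -0.28 ± 0.138, Hk3 at -0.19 ± 0.155 and Pdha1 at 0.52 ± 0.440. Txnip, which encodes an inhibitor of glucose uptake, fell by 1.10 with PyMT in the control background and by 1.13 in p38a-lox (limma, adjusted p = 0.0236 and 0.0232). No other gene of this list was called in any comparison. Over all genes, 1.26% were called with PyMT in the control background and 0.777% in p38a-lox.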

How the data were processed

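RNA of sorted luminal mammary cells was hybridised to Affymetrix arrays, 1 per sample, 16 in all. The authors deposited a table of 45141 probe sets as log2 values; the submitters' processing notes name RMA, which corrects background, normalizes by quantiles and summarizes probes, and no source used here gives its version or settings. Arrays have no read depth, and their number limits the precision. Groups were taken from the genotype labels. GEO's platform annotation gave 28898 probe sets a single symbol, 551 several, and did not list 15692; of the first, 28689 matched RefSeq by Entrez ID. Genes with a mean at or above the 25th percentile of probe sets (3.67) were kept.

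A single limma model (version 3.58.1, R 4.3.3) with a mean for each of the 4 groups gave 5 contrasts (12 residual and 2.83 prior degrees of freedom), with Benjamini-Hochberg adjustment over the 14410 genes and a threshold of 0.05. The script was tested on simulated data. Signals in every array are given for the 6 members with the smallest p in each contrast and for Hif1a, Slc2a1 and Gapdh, and the others by role. Of other pathway genes, those called are named, otherwise the 3 with the smallest p. Marker lists cover luminal, basal, endothelial, fibroblast, leukocyte, adipocyte, erythroid, immediate early and cell cycle genes. The members and lists were chosen with earlier results of these data known. Alternatives changed the filter, probe sets, normalization, variance model, array weights, samples, a title-number covariate, the threshold and single arrays.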

Additional observations from a re-analysis of the deposited data

Results flagged for a closer look

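In 6 of the 120 combinations of a member and a group, 1 array stood apart from the other 3 by more than Dixon's 95% limit. Chance alone gives about 1 in 20 such groups. PyMT replicate 2 read 11.61 for Bnip3, where the rest of its group read 8.54 to 9.05, and 9.68 for Egln1, where the rest read 8.08 to 8.34. This array held the highest value of its group for 25 of the 30 members, a count that was not made over all genes. Pfkp read 8.72 in p38a-lox replicate 4, against 8.29 to 8.35 in the other p38a-lox arrays. Aldoa read 12.12 in p38a-lox PyMT replicate 3, against 12.01 to 12.03. Aldoc read 8.83 in p38a-lox PyMT replicate 1, against 9.80 to 9.97. Mxi1 read 9.04 in MMTV-Cre replicate 3, against 9.55 to 9.65.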

How the results depend on the processing

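For PyMT in p38a-lox, the count of members called was 4, and it became 13 with array weights and 1 when a change of at least 1.2-fold was tested. Leaving out each array in turn gave 1 to 4. For PyMT in the control background the count was 0, and it became 4 with array weights and 0 to 2 when single arrays were left out, with 2 only without PyMT replicate 2. The cause was not tested. Over all genes, array weights called 1416 genes against 112 and 1268 against 182 in these comparisons, and the other alternatives 26 to 230 and 47 to 443. For p38a-lox without PyMT, with PyMT and their interaction, no alternative called a member, and over all genes array weights called 8, 5 and 0 and the others 0 to 4, 0 to 3 and 0. The median member difference ranged from -0.64 to -0.48 for p38a-lox without PyMT, from -0.08 to 0.25 with it, from 0.38 to 0.87 for the interaction, from -0.09 to 0.30 for PyMT in the control background and from 0.61 to 0.77 in p38a-lox. Of 804 values of named members under the alternatives, 773 kept their direction and their side of the threshold, 22 no longer passed it, 9 newly passed it, and no sign turned among called values. The correlations without PyMT replicate 2 were chosen after seeing the data. No paired analysis was possible because the replicate numbers only follow the order of the samples and the labels give none. Low signal did not remove any member.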
